A study of Mus musculus with 11 samples.

Results

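Cytosolic ribosomal protein genes encode the protein subunits of the ribosomes that translate nuclear-encoded mRNA in the cytoplasm. They were chosen by symbol, without use of any measured value: names built of Rpl or Rps, a number and at most a letter or the suffix l or l1, plus Rplp0, Rplp1, Rplp2 and Rpsa, with names marked -ps left out. The rule matched 85 of the 23284 gene symbols in the count files. Of these, Rps6kl1 encodes a kinase-like protein that matches only by its letters and was set aside, which left 84 genes, 52 of the large and 32 of the small subunit. Their mRNA was compared between 11 bulk tumors of mice engineered to develop small cell lung cancer, a lung tumor with neuroendocrine features. All tumors carried the genotype labelled Rb;p53,TRE-MYCN, LSL-RTTA, in which TRE-MYCN is a MYCN transgene under a doxycycline-responsive promoter and LSL-RTTA is a doxycycline-dependent activator that needs Cre to be switched on. In the MYCN ON group, 7 tumors were labelled ON DOX, and in the MYCN OFF group, 4 tumors had been 7 days without doxycycline. Because every tumor on the drug also had the transgene switched on, effects of MYCN and of doxycycline cannot be told apart. The sources used here do not give which cells received Cre, nor how many mice the tumors were taken from, so p-values measure only the spread between these tumors, part of which may be technical.

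A cytosolic ribosome holds a small subunit, which binds mRNA and decodes it, and a large subunit, which forms the peptide bonds. Cells make the proteins of both in balanced amounts, and their mRNAs commonly begin with a C followed by a run of pyrimidines, the terminal oligopyrimidine (TOP) sequence, through which mTOR signalling and the RNA-binding protein LARP1 control their translation. MYC family transcription factors, which bind the E-box CACGTG, are known to raise the transcription of genes for ribosome production. In mammalian genomes ribosomal protein genes have many processed pseudogenes, intron-less copies that can be near identical to the mRNA, and short reads that match several copies cannot be placed.

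The starts of 8 of these genes are shown as examples named in the results below. These are Rpl15 and Rps24 among the genes with the largest changes, Rplp0 of the stalk and Rpl23 with an E-box. Further ones are Rps27 and Rpl41 among the smallest changes, and Rpl36a with its paralog Rpl36al. Each stretch runs 5′ to 3′ on the gene's strand from 60 bases before to 15 bases from the annotated start onwards, from RefSeq on GRCm38.p6. The reads had been aligned to another build, so the coordinates hold for GRCm38.p6 alone. Capitals mark CACGTG, the ETS-type motif CCGGAAG on either strand, or a C-started run of at least 5 pyrimidines that begins within 10 bases of the annotated start. The genes lie, in the order shown, at chr14:18270972-18271046 (minus strand), chr14:24490618-24490692 (plus), chr5:115559407-115559481 (plus), chr11:97782425-97782499 (minus), chr3:90213634-90213708 (minus), chr10:128549154-128549228 (minus), chrX:134585594-134585668 (plus) and chr12:69184053-69184127 (minus).
Rpl15: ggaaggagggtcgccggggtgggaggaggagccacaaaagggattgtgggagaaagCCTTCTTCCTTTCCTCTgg
Rps24: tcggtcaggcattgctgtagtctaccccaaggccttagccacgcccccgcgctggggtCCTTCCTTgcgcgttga
Rplp0: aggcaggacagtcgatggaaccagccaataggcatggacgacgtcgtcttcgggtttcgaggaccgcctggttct
Rpl23: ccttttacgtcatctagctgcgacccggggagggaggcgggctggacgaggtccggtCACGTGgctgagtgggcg
Rps27: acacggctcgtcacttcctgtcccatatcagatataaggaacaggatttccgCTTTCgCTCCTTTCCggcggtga
Rpl41: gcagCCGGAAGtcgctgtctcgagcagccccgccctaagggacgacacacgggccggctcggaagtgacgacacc
Rpl36a: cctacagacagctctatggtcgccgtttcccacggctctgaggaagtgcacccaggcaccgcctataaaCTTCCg
Rpl36al: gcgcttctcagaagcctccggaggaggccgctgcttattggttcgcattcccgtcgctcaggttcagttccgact
In these stretches a pyrimidine run stands at or near the start of Rpl15, Rps24, Rps27 and Rpl36a. Rpl23 holds the E-box, Rpl41 holds the ETS-type motif, and Rplp0 and Rpl36al hold no marked letters. Rps24 has another annotated start, at chr14:24490693-24490767 (plus), whose stretch is not printed and holds no marked letters.

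Each MYCN ON tumor had between 10324089 and 13123838 reads counted over genes, and each MYCN OFF tumor between 8951733 and 12190957. Levels are given as CPM, counts scaled to a common library size, with TMM scaling factors, which correct for differences in RNA composition and were 0.835 to 1.01 in MYCN ON and 1.09 to 1.22 in MYCN OFF. Reads on mouse Mycn were 36.5 to 171 CPM in MYCN ON and 5.62 to 15.6 CPM in MYCN OFF, with no overlap. Neuroendocrine markers were present in both groups, summing to 2159 to 3687 CPM in MYCN ON and 1541 to 7755 CPM in MYCN OFF. Markers of normal lung differed between tumors as well, and their values stand beside the results they touch below.

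Ribosomal protein mRNAs were higher in the MYCN ON tumors nearly across the family. Of the 81 genes with enough reads to test, 78 were higher in MYCN ON, 0 were lower and 3 (Rps27, Rpl22l1 and Rpl26) were not called at an edgeR adjusted p below 0.05. Among all 15237 genes tested, 16.0% were called higher and 13.4% lower. The median log2 fold change over the 81 genes was 1.37, which is 2.58-fold, with an interquartile range of 1.19 to 1.5, while the median over all genes tested was 0.00. A log2 fold change of at least 1 was reached by 68 genes. In 74 of the 81 genes every MYCN ON tumor was above every MYCN OFF tumor, a separation seen in 11.4% of all genes tested, and the opposite one, seen in 5.41% of all genes, occurred in none of the 81. The 7 genes with overlapping groups were Rpl10, Rpl22l1, Rpl26, Rpl32, Rpl36al, Rps9 and Rps27. Rpl10l, Rpl39l and Rpl3l had too few reads to test. In bulk tumors, fewer cells of a type and less RNA per cell cannot be told apart.

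Together the 84 genes took 5.83% to 9.59% of the reads counted over genes in MYCN ON, with a median of 6.60%. In the MYCN OFF tumors 1 to 4 they took 4.50%, 2.24%, 3.14% and 3.27%. The highest MYCN OFF tumor was thus below the lowest MYCN ON tumor, and the group means were 6.91% ± 1.29 (SD, n = 7) and 3.29% ± 0.927 (SD, n = 4), a ratio of 2.10. This share uses raw counts and no scaling factor. MYCN ON tumor 1 held the highest level of the 11 tumors in 69 of the 81 tested genes, and MYCN OFF tumor 2 the lowest in 76. Among the 76 genes of at least 100 CPM, the median coefficient of variation between tumors was 26.8% in MYCN ON and 30.0% in MYCN OFF.

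Reads aligned to several places, which were not counted for any gene, moved with the same comparison. They made up 13.8% to 20.9% of all records in MYCN ON and 9.15% to 11.9% in MYCN OFF, with no overlap between the groups. The difference of the means was 5.32 percentage points (n = 7 and 4, exact permutation test, two-sided, p = 0.00303, the smallest value possible with 330 regroupings). MYCN ON tumor 1 had the highest and MYCN OFF tumor 2 the lowest share, the same 2 tumors that stood at the ends for the ribosomal protein genes. The share of these unplaced reads that came from ribosomal protein mRNA was not tested.

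**Figure D1:**
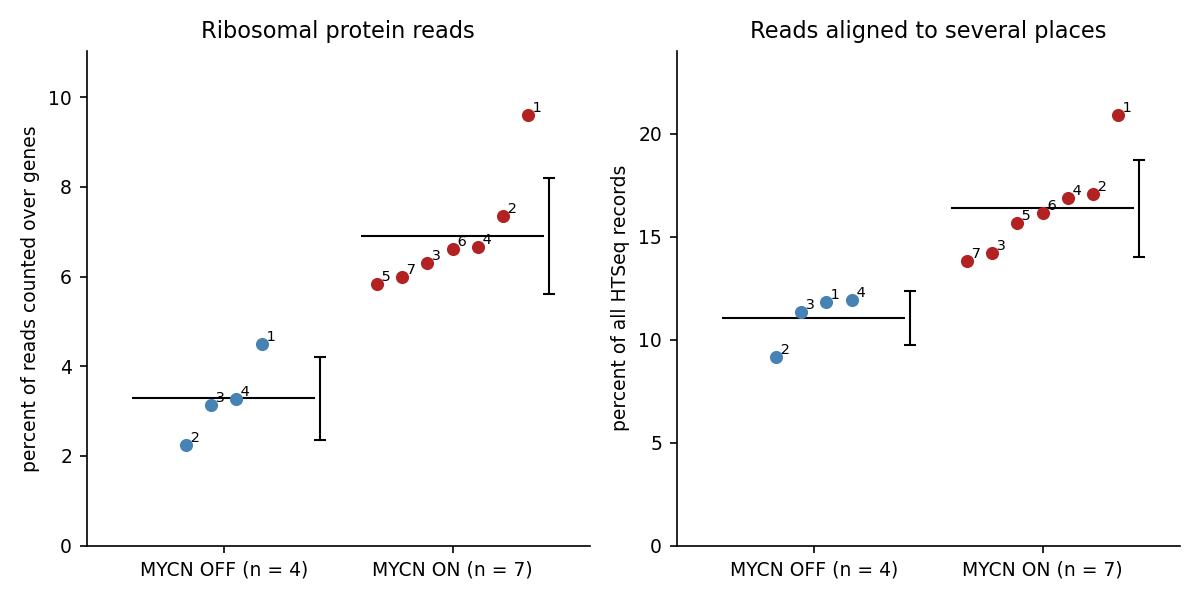
Percent of counted reads taken by the 84 ribosomal protein genes and percent of all records aligned to several places, with a point per tumor for 4 MYCN OFF and 7 MYCN ON tumors and a line at each mean. In both panels the MYCN ON tumors lie above all MYCN OFF tumors, at 5.83% to 9.59% against 2.24% to 4.50% on the left and at 13.8% to 20.9% against 9.15% to 11.9% on the right.

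The stalk of the large subunit, which recruits the elongation factors, is built from Rplp0, Rplp1 and Rplp2. Rplp0, the base of the stalk, ranged from 1894 to 4221 CPM in MYCN ON with a median of 2726, and was at 1009, 669, 783 and 765 CPM in MYCN OFF tumors 1 to 4. The lowest MYCN ON tumor was well above the highest MYCN OFF tumor, and Rplp0 had the second largest change of the family (edgeR log2 fold change 1.84, SE 0.24, adjusted p = 6.99e-04). Rplp1, which with Rplp2 forms the flexible tip, ranged from 818 to 1210 CPM with a median of 917 in MYCN ON and was at 717, 368, 468 and 622 CPM in MYCN OFF. Its groups did not overlap, but MYCN OFF tumors 1 and 4 came close to the MYCN ON range, and the change was among the smallest (edgeR log2 fold change 0.81, SE 0.20, adjusted p = 0.0125). Rplp2 ranged from 261 to 465 CPM with a median of 344 in MYCN ON and was at 179, 138, 150 and 167 CPM in MYCN OFF. The MYCN OFF tumors lay close together and below every MYCN ON tumor (edgeR log2 fold change 1.10, SE 0.17, adjusted p = 0.00158).

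Rpl3 and Rpl4 are core proteins of the large subunit, and Rpl4 lines the exit tunnel for the new peptide. Rpl3 ranged from 1140 to 2533 CPM with a median of 1728 in MYCN ON, against 780, 462, 512 and 498 CPM in MYCN OFF. Rpl4 ranged from 1364 to 2780 CPM with a median of 2033, against 993, 656, 598 and 708 CPM. Neither overlapped between the groups, and both rose (log2 fold changes 1.64, SE 0.26, and 1.5, SE 0.22; edgeR adjusted p = 0.00164 and 0.00129). Rpl15, another core protein of the large subunit, had the largest change of the 81 tested genes. It ranged from 743 to 2015 CPM with a median of 930 in MYCN ON and was at 418, 172, 213 and 233 CPM in MYCN OFF. MYCN ON tumor 1 stood far above the other MYCN ON tumors, and the lowest MYCN ON tumor was still above all MYCN OFF tumors (edgeR log2 fold change 2.02, SE 0.34, adjusted p = 0.00201). Rpl6, which also had 1 of the 6 largest changes, ranged from 1151 to 3172 CPM with a median of 1502, against 759, 363, 461 and 517 CPM (edgeR log2 fold change 1.72, SE 0.30, adjusted p = 0.00258). Its highest value was again that of MYCN ON tumor 1.

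Some large-subunit proteins are known for roles beyond the catalytic core. Rpl24, which reaches across to the small subunit, ranged from 605 to 952 CPM with a median of 700 in MYCN ON and was at 383, 188, 243 and 306 CPM in MYCN OFF. Rpl38, known for its part in translating Hox mRNAs, ranged from 342 to 749 CPM with a median of 445, against 276, 130, 169 and 212 CPM. Rpl13a, also known as a translational silencer outside the ribosome, ranged from 1315 to 2859 CPM with a median of 1622, against 1094, 582, 699 and 696 CPM. None of the 3 overlapped between the groups, and they rose with log2 fold changes of 1.41 (SE 0.22), 1.24 (SE 0.25) and 1.26 (SE 0.26; edgeR adjusted p = 0.00148, 0.00527 and 0.0054). Rpl10, which joins late and completes the large subunit, did overlap: it ranged from 733 to 1447 CPM with a median of 1160 in MYCN ON and was at 869, 354, 512 and 594 CPM in MYCN OFF. Only MYCN OFF tumor 1 reached into the MYCN ON range, and the increase was smaller (edgeR log2 fold change 0.90, SE 0.26, adjusted p = 0.0223). Rpl41, a very short basic peptide between the subunits, ranged from 802 to 1147 CPM with a median of 1012, against 679, 392, 528 and 637 CPM. Its groups came close without overlap (edgeR log2 fold change 0.82, SE 0.18, adjusted p = 0.00783).

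Small-subunit genes with textbook roles moved alike. Rpsa, also known as the laminin receptor precursor, ranged from 947 to 2816 CPM with a median of 2147 in MYCN ON and was at 807, 525, 597 and 709 CPM in MYCN OFF. Rps6, the substrate of the S6 kinases, ranged from 1055 to 3258 CPM with a median of 1535, against 869, 430, 598 and 512 CPM. Rps2 ranged from 939 to 2287 CPM with a median of 1334, against 604, 318, 388 and 480 CPM. These 3 genes did not overlap between the groups and rose by log2 fold changes of 1.58 (SE 0.31), 1.53 (SE 0.33) and 1.63 (SE 0.27; edgeR adjusted p = 0.00452, 0.00704 and 0.00179). Rps3, at the mRNA entry site and also known in DNA repair, ranged from 869 to 2161 CPM with a median of 1258, against 695, 408, 468 and 427 CPM (edgeR log2 fold change 1.37, SE 0.27, adjusted p = 0.00422). Rps14, whose human counterpart lies in the region lost in 5q- syndrome, ranged from 776 to 1097 CPM with a median of 882, against 686, 318, 370 and 287 CPM. It rose with a log2 fold change of 1.14 (SE 0.24, edgeR adjusted p = 0.00573), and MYCN OFF tumor 1 came close to the MYCN ON range.

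Rpl5 and Rpl11, which form a particle with the 5S rRNA, and Rpl23 bind and inhibit MDM2, the ubiquitin ligase of p53, when ribosome assembly is disturbed. These tumors carry p53 alleles in their genotype label. Rpl5 ranged from 1037 to 3043 CPM with a median of 1533 in MYCN ON and was at 871, 387, 482 and 509 CPM in MYCN OFF. Rpl11 ranged from 739 to 1937 CPM with a median of 1220, against 561, 371, 520 and 456 CPM. Rpl23, the E-box gene printed above, ranged from 768 to 1812 CPM with a median of 878, against 614, 258, 317 and 395 CPM. No MYCN OFF tumor reached the MYCN ON range in any of the 3, and MYCN ON tumor 1 was the highest in each of them. Rpl5 rose with a log2 fold change of 1.56 (SE 0.32), Rpl11 with 1.35 (SE 0.27) and Rpl23 with 1.36 (SE 0.30; edgeR adjusted p = 0.00536, 0.00469 and 0.00791).

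Rps27a is translated as a fusion with ubiquitin. It ranged from 767 to 1927 CPM with a median of 842 in MYCN ON and was at 469, 237, 309 and 361 CPM in MYCN OFF, without overlap (edgeR log2 fold change 1.58, SE 0.30, adjusted p = 0.00359). Fau, a fusion of a ubiquitin-like protein with the small-subunit protein S30, does not match the symbol rule and was not called, at 420 ± 132 and 322 ± 119 CPM (edgeR log2 fold change 0.38, SE 0.30, adjusted p = 0.346). Gnb2l1, the small-subunit scaffold protein RACK1, also lies outside the rule and was higher at 1525 ± 634 against 476 ± 142 CPM (edgeR log2 fold change 1.68, SE 0.31, adjusted p = 0.00312).

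Rps19, Rps24, Rps26, Rps10 and Rpl35a are among the genes mutated in Diamond-Blackfan anemia, an inherited failure of red cell production. Rps24 ranged from 1189 to 2369 CPM with a median of 1404 in MYCN ON and was at 883, 191, 315 and 337 CPM in MYCN OFF. MYCN OFF tumor 1 stood far above the other MYCN OFF tumors, which gave Rps24 a large SE beside a large change (edgeR log2 fold change 1.8, SE 0.38, adjusted p = 0.00636). Rps26 ranged from 596 to 1160 CPM with a median of 743, against 325, 162, 220 and 216 CPM (edgeR log2 fold change 1.75, SE 0.25, adjusted p = 0.00101). Rps19 ranged from 398 to 859 CPM with a median of 465, against 308, 149, 199 and 179 CPM. All 3 separated the groups, Rps19 with a log2 fold change of 1.37 (SE 0.27, edgeR adjusted p = 0.00449). Rps10 ranged from 489 to 1190 CPM with a median of 609, against 370, 143, 200 and 234 CPM. Rpl35a ranged from 553 to 966 CPM with a median of 597, against 425, 213, 302 and 355 CPM. Both again separated the groups, with log2 fold changes of 1.5 (SE 0.31) and 1.04 (SE 0.23; edgeR adjusted p = 0.00536 and 0.00673).

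**Figure D2:**
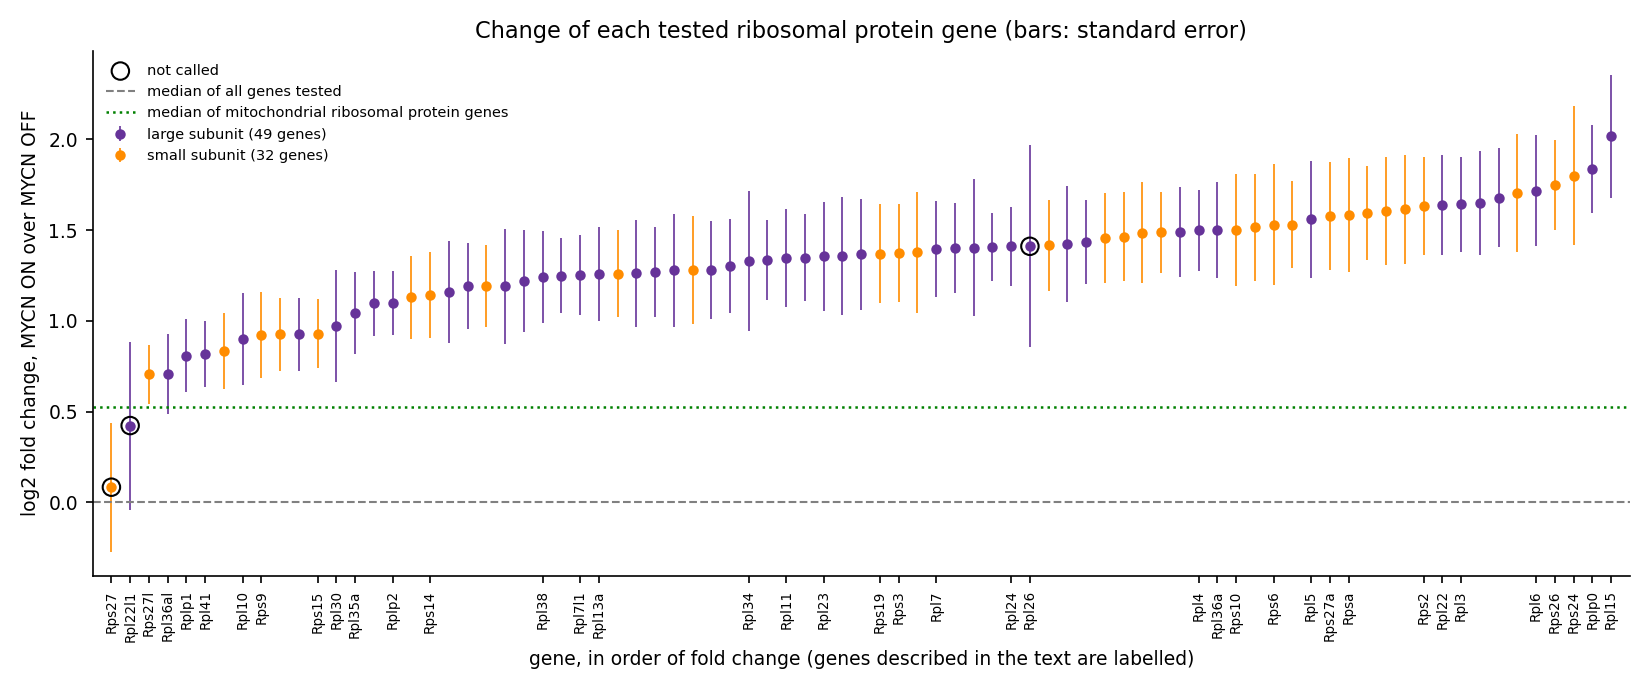
Log2 fold change, MYCN ON over MYCN OFF, of each of the 81 tested ribosomal protein genes in order of size, with bars for the standard error from the edgeR fit, colours for the subunit and rings around the 3 genes not called. With TMM every estimate lies above 0, from 0.08 for Rps27, whose sign turns with other scalings, to 2.02 for Rpl15, and most lie around the median of 1.37 and above the median of 0.53 of the mitochondrial ribosomal protein genes.

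Large-subunit and small-subunit genes changed by similar amounts. Of the 49 large-subunit genes tested, 47 were higher, and of the 32 small-subunit genes, 31 were higher. The median log2 fold change was 1.34 for the large and 1.46 for the small subunit, and 1.35 and 1.46 over the 45 and 31 genes of at least 100 CPM. The large-subunit genes took 4.13% ± 0.775 of the counted reads in MYCN ON (SD, n = 7) and 2.01% ± 0.538 in MYCN OFF (SD, n = 4), a ratio of 2.06. For the small-subunit genes these shares were 2.77% ± 0.514 and 1.28% ± 0.390, a ratio of 2.17. Within a tumor, the mean log2 CPM of the large-subunit genes minus that of the small-subunit genes was -0.32 to -0.20 in MYCN ON. In MYCN OFF it was -0.27 to -0.12, so the ranges overlapped, and the means differed by -0.05. As a score over the chosen genes, this balance has no p-value here.

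The fold changes themselves varied little within the family, with an SD of 0.32 on the log2 scale. To ask which genes moved unlike the rest, the edgeR test was repeated with the summed reads of the 84 genes as the library size of each tumor. Against that sum, edgeR called 0.308% of all genes higher in MYCN ON and 73.6% lower. With so large a share called, adjustment over all genes left p-values close to their unadjusted size. It therefore gives little control for the number of ribosomal protein genes examined. Whether any gene would pass an adjustment within the family was not tested, so the calls below do not establish that a gene moved unlike the rest. Within the family, Rpl15 was called higher relative to the sum (relative log2 fold change 0.62, SE 0.20, edgeR adjusted p = 0.0138). Another 8 genes were called lower relative to the sum: Rps27, Rpl36al, Rps27l, Rpl41, Rplp1, Rps15, Rps9 and Rpl10. Their relative log2 fold changes ran from -1.26 for Rps27 to -0.46 for Rpl10 (edgeR adjusted p = 0.0182 and 0.0359). In CPM, 7 of these 8 genes were still called higher, and Rps27 was not called. Rps15, at the decoding site, ranged from 679 to 1064 CPM with a median of 812 in MYCN ON and was at 543, 321, 413 and 452 CPM in MYCN OFF (edgeR log2 fold change 0.93, SE 0.19, adjusted p = 0.00536). Rps9, an early-binding small-subunit protein, ranged from 590 to 1171 CPM with a median of 764, against 619, 341, 392 and 371 CPM, and MYCN OFF tumor 1 overlapped the MYCN ON range (edgeR log2 fold change 0.92, SE 0.24, adjusted p = 0.0147). These lists depended on single tumors. Without MYCN OFF tumor 4, only Rpl36al was still called lower relative to the sum. The count of relatively lower genes was 3 when tumor 2 or 3 of MYCN ON, or tumor 3 of MYCN OFF, was left out, and 4 when tumor 6 or 7 of MYCN ON was. When the score of lung markers was added as a covariate, no gene was called relatively lower. Rps24 in place of Rpl15 was then called relatively higher.

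The genes not called all had low counts or overlapping groups. Rps27, a small-subunit zinc-finger protein, had 224 reads over all 11 tumors and lay between 1.32 and 2.20 CPM with a median of 1.86 in MYCN ON, against 2.0, 1.09, 1.42 and 2.25 CPM in MYCN OFF. The groups overlapped throughout (edgeR log2 fold change 0.08, SE 0.36, adjusted p = 0.876), and the sign of the change turned with RLE or upper quartile factors, library totals or DESeq2. Rpl26, a large-subunit protein also known to bind p53 mRNA, had 152 reads and lay between 0.780 and 3.36 CPM with a median of 1.36 in MYCN ON, against 0.559, 1.09, 0.405 and 0.375 CPM. Its fold change was close to the family median but its groups overlapped through MYCN OFF tumor 2 (edgeR log2 fold change 1.41, SE 0.56, adjusted p = 0.0745). Rpl30 and Rpl34, with 694 and 975 reads, were also far below the other genes and were called higher (log2 fold changes 0.97, SE 0.31, and 1.33, SE 0.39; edgeR adjusted p = 0.0353 and 0.0243). Beside Rpl34, the annotation used by the submitters lists a pseudogene copy, Rpl34-ps1, which held 6515 reads. Since reads that match several places were not counted, these low counts were not taken as levels of the mRNA.

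Paralogs named with the suffix l or l1 are closely related second genes of a ribosomal protein, often with a tissue-restricted pattern. There were 7 such genes, of which 4 had enough reads to test. Rpl36al and Rpl36a encode nearly the same protein. Rpl36al ranged from 170 to 346 CPM with a median of 242 in MYCN ON and was at 186, 97.6, 142 and 162 CPM in MYCN OFF (edgeR log2 fold change 0.71, SE 0.22, adjusted p = 0.0312). Rpl36a ranged from 366 to 602 CPM with a median of 413, against 242, 88.4, 139 and 159 CPM (edgeR log2 fold change 1.5, SE 0.27, adjusted p = 0.00258). The balance within the pair shifted: Rpl36al made up 31.0% to 40.2% of the pair's reads in MYCN ON and 43.5%, 52.5%, 50.6% and 50.4% in MYCN OFF. The groups did not overlap, and the log2 ratio of Rpl36al to Rpl36a was -0.89 ± 0.21 in MYCN ON and -0.04 ± 0.23 in MYCN OFF (SD, n = 7 and 4, two-sided exact permutation p = 0.00303, 0.0152 adjusted over 5 pairs). Such a ratio within a tumor does not depend on the scaling, but it does depend on reads lost because they match several places. Exposure to such losses, described below, was unequal. Of the stretches of 50 bases in each transcript, 85.5% for Rpl36a and 46.5% for Rpl36al were found in another gene. The part of such losses in the shift was not tested.

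Rps27l, a paralog of Rps27 known as a p53 target, ranged from 103 to 159 CPM with a median of 115 in MYCN ON and was at 90.3, 61.3, 68.8 and 75.7 CPM in MYCN OFF. It rose without overlap (edgeR log2 fold change 0.71, SE 0.16, adjusted p = 0.0094). Its log2 ratio to Rps27 differed by 0.58 (n = 7 and 4, two-sided exact permutation p = 0.0333, 0.0555 adjusted over 5 pairs) and rests on the few reads of Rps27. Rpl22l1 ranged from 19.0 to 61.9 CPM with a median of 20.9 in MYCN ON and was at 31.9, 8.41, 16.9 and 37.7 CPM in MYCN OFF. Its groups overlapped (edgeR log2 fold change 0.42, SE 0.46, adjusted p = 0.513). Rpl22, its namesake, an RNA-binding large-subunit protein, ranged from 582 to 1136 CPM with a median of 948, against 394, 203, 281 and 224 CPM, and rose (edgeR log2 fold change 1.64, SE 0.27, adjusted p = 0.00192). Rpl22l1 made up 1.74% to 8.88% of the pair's reads in MYCN ON and 3.97% to 14.4% in MYCN OFF. In the MYCN ON group the 7 tumors fell apart, with at most 2.15% in tumors 1 to 4, 4.48% in tumor 5, 8.88% in tumor 6 and 8.17% in tumor 7. The log2 ratio did not pass the test (difference -1.15, n = 7 and 4, two-sided exact permutation p = 0.1, 0.125 adjusted over 5 pairs).

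Rpl7l1, a nucleolar relative of Rpl7, rose together with its namesake. It ranged from 119 to 235 CPM with a median of 136 in MYCN ON and was at 73.1, 58.5, 60.9 and 74.1 CPM in MYCN OFF (edgeR log2 fold change 1.25, SE 0.22, adjusted p = 0.00238). Rpl7 ranged from 1061 to 1833 CPM with a median of 1384, against 886, 357, 444 and 451 CPM (edgeR log2 fold change 1.39, SE 0.26, adjusted p = 0.00354). Neither gene overlapped between the groups, and their log2 ratio differed by -0.25 (n = 7 and 4, two-sided exact permutation p = 0.294 before and after adjustment over 5 pairs). The fifth pair set Rps4y2, which does not match the symbol rule and had 340 reads in all, against Rps4x. Its log2 ratio was -10.02 ± 0.95 in MYCN ON and -7.52 ± 1.12 in MYCN OFF (SD, n = 7 and 4, two-sided exact permutation p = 0.00606, 0.0152 adjusted over 5 pairs), while Rps4y2 alone was not called (edgeR log2 fold change -1.37, SE 0.66, adjusted p = 0.132). That ratio missed the threshold without MYCN OFF tumor 1 (difference -2.10) or MYCN OFF tumor 4 (difference -2.30), each with an exact permutation p of 0.0625 after adjustment.

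**Figure D3:**
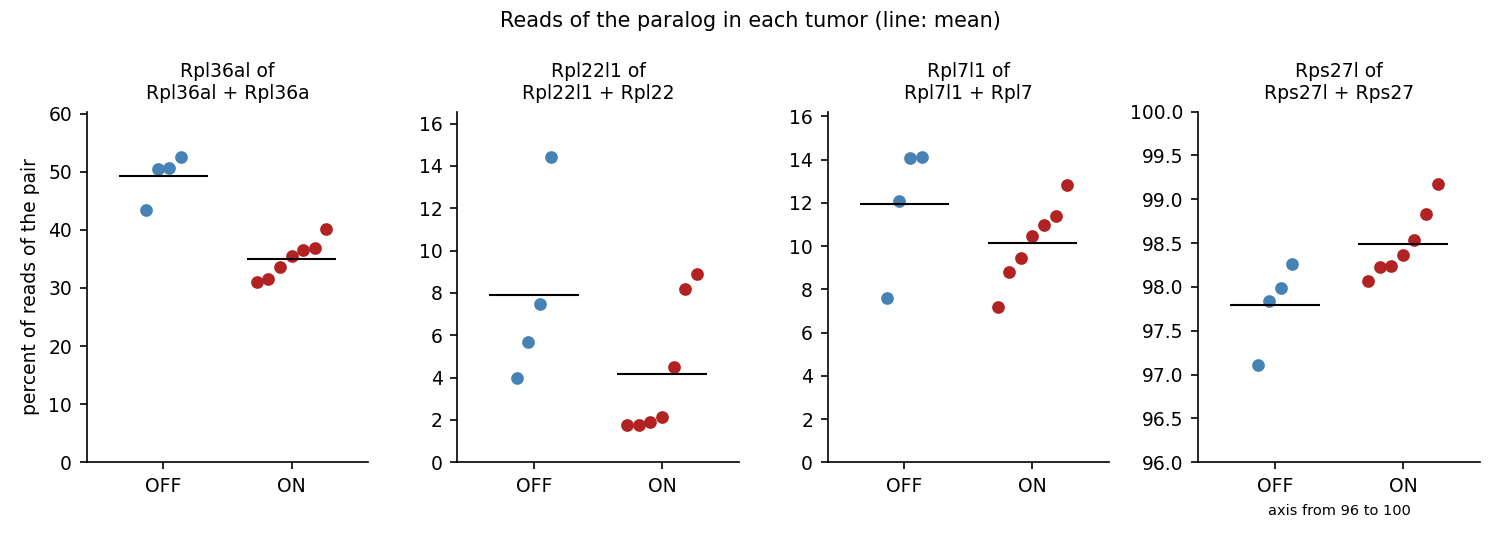
Percent of the pair's reads that fell on the paralog, with a point per tumor for 4 MYCN OFF and 7 MYCN ON tumors and a line at each group mean; the Rps27l panel has an axis from 96 to 100. Rpl36al lies at 31.0% to 40.2% in MYCN ON and 43.5% to 52.5% in MYCN OFF without overlap, while the Rpl22l1 and Rpl7l1 panels overlap.

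Because reads that match several places were not counted, the exposure of each gene to such losses was described from its transcript. For each of the 84 genes 1 GENCODE transcript on GRCm38 was split into all stretches of 50 bases, and the share found exactly in a transcript of another, non-overlapping gene was counted. The median share over the 81 tested genes was 49.3%. In 7 genes it was under 10%, among them Rps3 (2.96%), Rpl22 (5.19%), Rps15a, Rps20, Rpl8 and Rpl7l1. A low share does not mean few shared stretches: the transcripts used for Rps15a, Rps20 and Rpl7l1 are long (5179, 3706 and 2606 bases), and share stretches with 64, 50 and 520 other genes. Those of Rps3, Rpl22 and Rpl8 share stretches with 1, 4 and 1. All 7 were higher in MYCN ON, with a median log2 fold change of 1.38 and a range of 1.10 to 1.64. At shares of 10% to 50%, 34 of 34 genes were higher with a median of 1.35, and at 50% to 90%, 35 of 37 with a median of 1.39. The 3 genes at 90% or more were Rps27 (98.6%), Rpl9 (93.3%) and Rpl10 (92.1%), of which 2 were higher, with a median of 0.90. Of the other genes with very low counts, Rpl26 stood at 71.3%, Rpl34 at 50.6% and Rpl30 at 47.8%. The share did not set these apart, since Rpl9 and Rpl10 had higher shares and far more reads. Across the 81 genes, which are not independent replicates and share the same libraries, Spearman's rho between the shared percentage and the log2 fold change was 0.07. The same measure between the shared percentage and the level per kilobase of transcript in MYCN ON was 0.39. Both the percentage and the level are divided by the length of the same transcript. This rho therefore cannot be read as a relation of shared sequence to level.

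Rpl8, of the large-subunit core, and Rps20 and Rps15a, of the small subunit, rose with log2 fold changes of 1.10 (SE 0.18), 1.38 (SE 0.33) and 1.49 (SE 0.28; edgeR adjusted p = 0.00172, 0.0113 and 0.00339). Per kilobase of transcript, the median level over the tested genes was 1099 CPM per kb in MYCN ON and 416 CPM per kb in MYCN OFF. The highest levels per length in MYCN ON were those of Rpl23a (2563), Rps3a (2310), Rpl41 (2256) and Rplp0 (2122 CPM per kb), and the lowest those of Rpl26 (3.09), Rps27 (5.19), Rpl30 (11.7) and Rpl34 (20.9 CPM per kb). Reads that match several places are missing from these levels, which also depend on the length of the transcript used for each gene. The order is therefore not one of mRNA abundance.

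**Figure D4:**
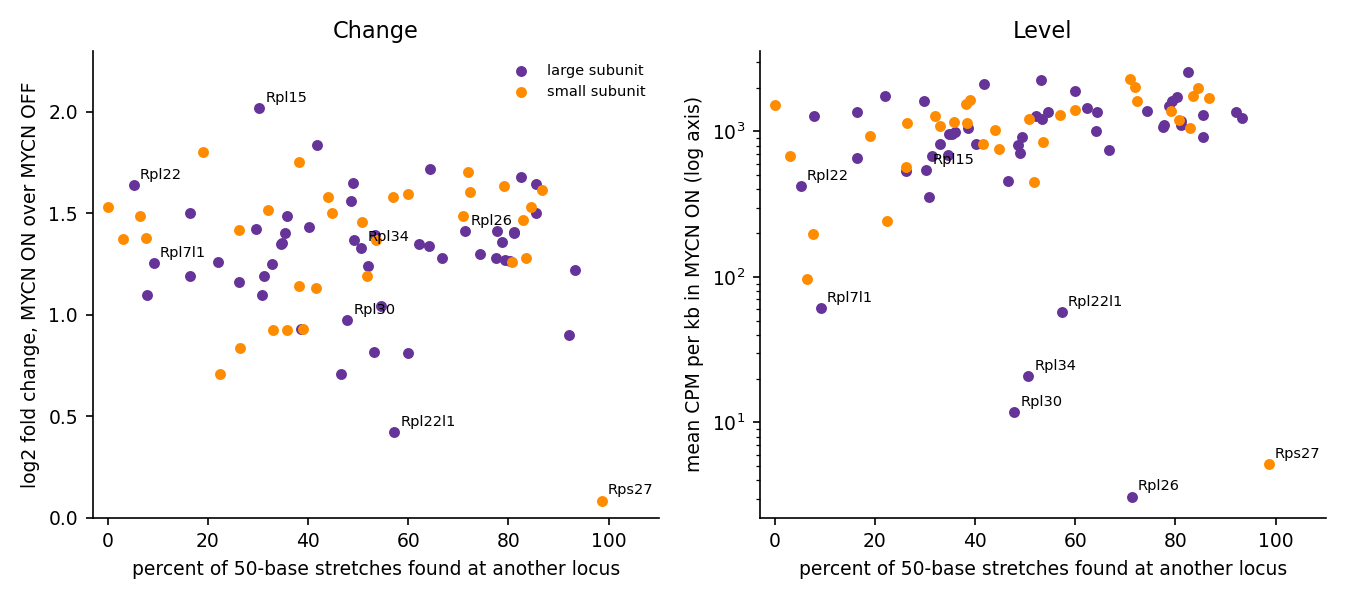
Log2 fold change, MYCN ON over MYCN OFF (left), and mean level in MYCN ON in CPM per kb on a log axis (right) of the 81 tested genes against the percentage of their 50-base stretches found at another locus, coloured by subunit. The fold changes lie around the median of 1.37 across the axis, and Rps27, at 98.6% shared, is lowest on the left.

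Promoter windows of 300 bases, 250 before and 50 from the annotated start, were found for 63 of the 84 genes in the RefSeq table. Genes with no window included Rpl3, Rpl7, Rpl8, Rpl30, Rpl32, Rplp1, Rps14, Rps20 and Rps27a. Among the 75 windows of these 63 genes, 32.0% had a C followed by at least 7 further pyrimidines that began within 10 bases of the start, against 8.11% of all 32851 windows and 6.67% of those of mitochondrial ribosomal protein genes. Rpl15, Rps24 and Rps27, printed above, have such a run. The ETS-type motif CCGGAAG, searched on both strands, was in 34.7% of the windows, as in 34.7% of the mitochondrial set, against 8.86% of all windows. CACGTG, which reads the same on both strands, was in 10.7% of the windows, against 9.33% of the mitochondrial set and 7.15% of all windows. It was in 14.9% of the large-subunit and 3.57% of the small-subunit windows. The genes with it were Rpl13a, Rpl14, Rpl19, Rpl23, Rpl34 and Rps19. On its reverse strand CCGGAAG begins with CTTCC and can overlap a pyrimidine run, and a match of letters is a description of the sequence only. The change in MYCN ON was of like size with and without them: the median log2 fold change was 1.34 and 1.36 with and without the pyrimidine run (24 and 36 tested genes), 1.41 and 1.34 for CCGGAAG (24 and 36), and 1.34 and 1.36 for CACGTG (6 and 54).

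Other genes of the same pathway were taken from lists chosen by role. The counts of each list below stand beside 16.0% of all genes tested called higher and 13.4% called lower. Of 15 chaperones and importers that carry ribosomal proteins or help insert them, 12 were higher and 0 lower, with a median log2 fold change of 1.30. The nucleolar proteins Npm1 and Ncl and the importer Ipo5 changed most (log2 fold changes 2.55, SE 0.27; 2.10, SE 0.25; and 2.02, SE 0.28). Rrs1 and Rpf2, which load the 5S particle of Rpl5 and Rpl11, rose with log2 fold changes of 1.43 (SE 0.22) and 1.46 (SE 0.16), and Grwd1, the chaperone of Rpl3, with 1.28 (SE 0.18). Not called were Aamp, related to the yeast chaperone of the Rpl10 protein (log2 fold change -0.11, edgeR adjusted p = 0.691), Pdcd2l (0.36, adjusted p = 0.219) and Tnpo1 (1.21, adjusted p = 0.0528).

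Of 17 other mRNAs with a TOP sequence, 16 were higher and 0 lower, with a median log2 fold change of 1.27. They include the elongation factors Eef1a1 (edgeR log2 fold change 1.22, SE 0.31, adjusted p = 0.0134) and Eef2 (0.74, SE 0.21, adjusted p = 0.0238) and the poly(A)-binding protein Pabpc1 (1.47, SE 0.20). Eef1d was not called (0.36, edgeR adjusted p = 0.0791). Npm1 and Nap1l1 stand on both lists. Among 17 genes that control TOP mRNAs, 8 were higher and 0 lower, with a median of 0.66. Larp1, which binds the TOP sequence, rose by 0.78 (SE 0.24, edgeR adjusted p = 0.0319), and the S6 kinase gene Rps6kb1 by 1.18 (SE 0.17). Mtor (0.14, edgeR adjusted p = 0.738) and Tsc2 (-0.19, adjusted p = 0.579), the kinase and one of its inhibitors, were not called.

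The 76 mitochondrial ribosomal protein genes, also encoded in the nucleus but for the ribosome inside mitochondria, were compared as the most similar family. Of these, 36 were higher and 0 lower, with a median log2 fold change of 0.53, and 26 separated the groups in full. Of all genes tested, 16.0% were called higher, and in 11.4% every MYCN ON tumor was above every MYCN OFF tumor. The mitochondrial ribosomal protein genes took 0.340% of the counted reads in MYCN ON and 0.288% in MYCN OFF, a ratio of 1.18. The corresponding ratio for the cytosolic genes was 2.10, and 78 of 81 of them were called. The difference between both families was not tested.

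Markers of normal lung moved with the groups, and their part in the result was not tested. The lung score, the mean log2 CPM of alveolar, club and ciliated markers, was -0.05 to 5.97 in MYCN ON and 1.99 to 8.78 in MYCN OFF. In MYCN ON, 0 of the 17 lung markers tested rose and 7 fell, and of the 6 immune markers tested 4 were lower. Summed alveolar type II markers ranged from 39.3 to 2066 CPM in MYCN ON and from 116 to 15481 CPM in MYCN OFF, and summed immune markers from 166 to 832 and from 338 to 6781 CPM. Sftpb, Sftpd, Lamp3, Cyp2f2, Tekt1 and Cd3e were at 0 in at least 1 MYCN ON tumor and Sftpd in at least 1 MYCN OFF tumor. With the lung score as a covariate, 50 of the 81 ribosomal protein genes were still called higher and the median log2 fold change was 1.37. Calls fell over the whole table too: of all 15237 genes tested, 982 were higher and 430 lower, against 2437 and 2038 without the covariate. Rplp0, Rpl3, Rpl4, Rpl15, Rps2 and Rps24 were among the 50, while Rpl5, Rpl11, Rpl23, Rpl10, Rpl13a, Rpl36al, Rplp1, Rpsa, Rps3, Rps6, Rps9, Rps15 and Rps19 were among those no longer called.

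With the share of reads aligned to several places as a covariate, edgeR called 0 of the 81 genes and 0 of all genes tested. The median log2 fold change of the ribosomal protein genes was then 0.57, and 29 of them had an unadjusted p below 0.05, as had 2615 of all 15237 genes. That share separated the groups without overlap, so its part and that of the groups cannot be told apart in this fit. With library totals in place of TMM factors the median of all genes shifted to -0.31 and 71 ribosomal protein genes were called higher and 0 lower, against 8.67% and 21.9% of all genes. Their median log2 fold change was then 1.04, which is 1.35 above the median of all genes. The calls of Rpl10, Rpl30, Rpl34, Rpl36al, Rplp1, Rps21 and Rps27l were lost under that scaling.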

How the data were processed

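Poly(A) RNA, isolated with TRIzol and oligo-dT beads and made into libraries with the NEBNext Ultra kit per the labels' protocols, was sequenced from 7 MYCN ON and 4 MYCN OFF tumors. For every tumor the authors deposited a table of raw counts, whole reads per gene symbol. The submitters' processing notes name bcl2fastq 1.8.4, TopHat2 2.0.8b, HTSeq 0.6.1 and the build mm9. Annotation, strandedness and read length are not given in the sources used here. Reads of overlapping or antisense genes therefore cannot be told apart.

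Groups came from the sample titles and the doxycycline label. The 5 HTSeq summary rows were left out of every library size and test; reads with no annotated gene were 14.8% to 21.5% of the records. In R 4.3.3 with edgeR 4.0.16, filterByExpr (minimum count 10, minimum total 15) left 15237 of 23284 genes, which were scaled by TMM and compared by the robust quasi-likelihood test without covariates. Calls used a Benjamini-Hochberg adjusted p below 0.05 over all genes tested, and positive log2 fold changes mean higher in MYCN ON. The biological coefficient of variation was 53.7%. Paralog ratios (0.5 added to each count) were compared by an exact permutation test over 330 regroupings. Transcripts were from GENCODE M21 and promoter windows from RefSeq, both on GRCm38, and served only for sequence description. Shared stretches were counted as exact matches to annotated transcripts.

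The genes, the lists and the rule for named genes were chosen with earlier results of these data known. The rule took paralogs and namesakes, genes with textbook roles, and the 6 largest and 6 smallest log2 fold changes. It also took genes not called or not tested, genes called relative to the sum, and Fau and Gnb2l1. A few genes are not reported here. Rpl8, Rps15a, Rps20, Rpl9, Rpl23a, Rps3a, Rpl30, Rpl34 and the genes named within the pathway lists were chosen after their values were seen. The closest replicates still differed beyond sampling noise (smallest chi-square per gene 52.1). Scripts were tested on simulated data. Alternatives were other scalings, DESeq2 1.42.0, limma 3.58.1 (voom), other filters and thresholds, covariates, a replicate block and each tumor left out.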

Additional observations from a re-analysis of the deposited data

Results flagged for a closer look

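In each group, a tumor was singled out where its gap to the nearest other tumor exceeded Dixon's 95% critical value for the range of the group. This held in 18 of the 108 groups of values checked, and chance alone gives about 1 in 20. MYCN ON tumor 1 was the highest in 14 of these, which are not independent because they come from 1 library.

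Its share of counted reads on the 84 ribosomal protein genes was 9.594%, with the next tumor at 7.357%. In CPM, MYCN ON tumor 1 stood apart for large-subunit genes: Rpl15 at 2015 (next 1044), Rpl23 at 1812 (next 1019), Rpl38 at 749.3 (next 449.6), Rpl5 at 3043 (next 1698), Rpl6 at 3172 (next 1836) and Rpl8 at 1619 (next 1095). Among small-subunit genes it stood apart for Rps2 at 2287 (next 1432), Rps6 at 3258 (next 1968), Rps10 at 1190 (next 655.9), Rps15a at 860.3 (next 549.2), Rps24 at 2369 (next 1491) and Rps27a at 1927 (next 1050). The same tumor was highest for Gnb2l1 at 2889 CPM (next 1515). It also had the lowest number of counted reads of its group (10324089), the lowest TMM factor (0.835) and the highest share of reads aligned to several places (20.9%). The part of these values in its high levels was not tested. Without it, 73 of the 81 tested ribosomal protein genes were called higher and the median log2 fold change was 1.09. Of all 15199 genes tested without it, 1843 were higher and 1750 lower.

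MYCN OFF tumor 1 was the highest of its group for Rpl3 at 780.5 CPM (next 512.2) and Gnb2l1 at 688.5 CPM (next 422.3). Rpl39l, a paralog of Rpl39 known from testis, was at 23.61 CPM in MYCN OFF tumor 4 and at most 0.07992 CPM in the other MYCN OFF tumors. In MYCN ON it was at 0.09049 CPM in tumor 6, which is 1 read, and at 0 in the other tumors.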

How the results depend on the processing

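All 66 results were recomputed under each alternative that could be run. The count of ribosomal protein genes called higher, 78 with TMM, was 71 with library totals, 72 with upper quartile and 76 with RLE factors. It was 78 with DESeq2 and with voom, and 73 to 78 with each tumor left out in turn. In each of these, 0 were lower. Of all 15237 genes tested, 1321 were higher and 3333 lower with library totals, and 1697 and 2894 with upper quartile factors. These counts were 2142 and 2323 with RLE factors, 2664 and 2925 with DESeq2, and 2497 and 1831 with voom. With each tumor left out, 1674 to 2956 of all genes tested were higher and 1015 to 2440 lower. Among the ribosomal protein genes called, Rpl10 was lost without MYCN ON tumor 1 or MYCN OFF tumor 3 or 4, and Rpl39 without MYCN ON tumor 1. Rpl34 was lost without MYCN ON tumor 1 and without MYCN OFF tumor 3. Rpl36al was lost without MYCN ON tumor 1 or 2 or MYCN OFF tumor 2, 3 or 4, and Rpl30 whichever tumor was left out, save MYCN ON tumor 7. The count of genes called higher fell to 50 with the lung score as covariate, to 0 with the multi-mapped share as covariate and in the subsets of tumors with a high or a low lung score. The subsets hold 5 and 6 tumors, the second with MYCN OFF tumor 2 alone, so their counts say nothing on stability. In the first, 58 ribosomal protein genes had an unadjusted edgeR p below 0.05, as had 3899 of all 15690 genes tested. With the lung score, calls over all genes tested fell as well, to 982 higher and 430 lower. A score of the immune markers as covariate left 67 ribosomal protein genes called higher, with a median log2 fold change of 1.56. Of all genes tested, 1033 were then higher and 577 lower. At an adjusted p below 0.01, 65 ribosomal protein genes were higher, against 1187 higher and 516 lower of all genes. In an edgeR test for changes above 1.5-fold, 56 were higher, against 796 and 660 of all genes. The cause was not tested for the covariates. With the multi-mapped share as a covariate Rpl36al reversed to a log2 fold change of -0.068 (edgeR adjusted p = 0.901). With no low-count filter, 1 gene was lower, Rpl39l, whose reads lie almost entirely in MYCN OFF tumor 4.

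Calls relative to the summed family were adjusted over all genes and carry the limit given above. Genes called as rising by more than the summed family numbered 1 in the test described above and 3 with a median-of-ratios reference. With each tumor left out they numbered 1 to 2 (2 without MYCN OFF tumor 1 and without MYCN OFF tumor 2). Chosen after seeing the data, a reference of genes with under 10% shared stretches gave 2. Genes called as rising by less numbered 8, and 5 with the median-of-ratios reference. They numbered 0 with the lung score and 1 to 10 with each tumor left out. The log2 ratio of Rps27l to Rps27 passed the test with 5 added to each count (0.60, exact permutation adjusted p = 0.0303) and without MYCN ON tumor 1, 2, 3 or 4 (exact permutation adjusted p = 0.0476, 0.0476, 0.0397 and 0.0397), and ranged from 0.45 to 0.68 with each tumor left out. That of Rps4y2 to Rps4x ranged from -2.96 to -2.10.

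The replicate numbers gave no clear pairing: same-numbered tumors had correlations of deviations of -0.162, 0.462, -0.0763 and 0.265. The closest MYCN ON tumor had the same number for MYCN OFF tumors 2 and 4. For MYCN OFF tumors 1 and 3 it was MYCN ON tumor 5 and 6. Whether the tumors were paired was not tested. With the replicate block, 70 ribosomal protein genes were called higher, against 1872 higher and 1152 lower of all 15237 genes tested. With that block, 5 genes were called as rising by less than the sum. Within the 4 shared numbers, the block gave log2 ratio differences of -0.92 for Rpl36al and -2.84 for Rps4y2 (exact permutation adjusted p = 0.156 for both, in a design of 4 pairs that cannot pass the threshold). Depth limits Rps27, Rpl26 and the untested Rpl10l, Rpl3l and Rpl39l, whose reads are few.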

Other observations

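The 3 paralogs with too few reads to test were Rpl10l, Rpl39l and Rpl3l. Rpl10l, an intron-less copy of Rpl10 known from testis, had 2 reads, both in MYCN ON tumor 7. Rpl39l had 254 reads, of which 252 were in MYCN OFF tumor 4 and 1 each in MYCN ON tumor 6 and MYCN OFF tumor 1. In MYCN OFF tumor 4 it made up 11.9% of the reads of Rpl39 and Rpl39l together, while Rpl39 itself ranged from 309 to 516 CPM with a median of 364 in MYCN ON and was at 304, 73.5, 148 and 175 CPM in MYCN OFF (edgeR log2 fold change 1.19, SE 0.32, adjusted p = 0.017). Rpl3l, the form of Rpl3 known from heart and skeletal muscle, had 28 reads, with at most 2 in any MYCN ON tumor and 6, 8, 3 and 2 in MYCN OFF tumors 1 to 4. The score of muscle markers was 5.17 in MYCN OFF tumor 2, the highest of the 11 tumors, and the relation was not tested.

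Among mitochondrial ribosomal proteins, Mrpl50 had the largest change, at 111 CPM in MYCN ON and 41.4 CPM in MYCN OFF on average (log2 fold change 1.42, edgeR adjusted p = 0.00115). Mrpl24, with the lowest estimate, was not called (log2 fold change -0.22, edgeR adjusted p = 0.321).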
